A study of Mus musculus with 36 samples.

Results

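The genes described here are 10 transcription factors of the naive pluripotent state: Nanog, Esrrb, Tfcp2l1, Klf2, Klf5, Zfp42, Tbx3, Prdm14, Nr5a2 and Sall4. They were chosen by symbol, with earlier results of these data known, and all 10 were found among the 21442 genes of the count table. Their RNA was followed in 36 mouse RNA-seq libraries, 3 for each of 12 groups, in which Zfp266 knockout (KO) and control (WT) cells were compared before, during and after reprogramming of fibroblasts to induced pluripotent stem cells (iPSCs). Zfp266 is a zinc finger gene, and the comparison asks whether naive factors switch on at another time, or to another level, without it. Mouse embryonic fibroblasts (MEFs) and cells at days 3, 5 and 7 (D3, D5 and D7) came from the Cas9 TNG MKOS line. MEFs were taken from chimeric E12.5 embryos made with it. The line carries Cas9, a reporter in the Nanog locus (Nanog-GFP-ires-Puro), and, under doxycycline control, Myc, Klf4, Oct4 (Pou5f1) and Sox2 with the fluorescent protein mOrange. Cells of these stages and iPSCs are labelled as 129 strain. KO groups of these stages received a lentiviral guide RNA against Zfp266 and WT groups a guide with no target, so a KO library was a population of edited cells and not a clone. MEF libraries had no doxycycline, and their medium held FGF2 and heparin but no leukemia inhibitory factor (LIF). No sort is described for them. At D3 to D7 cells in medium with LIF, doxycycline and vitamin C had been grown among wild-type MEFs and were sorted for mOrange. Differences between MEFs and D3 to D7 therefore include the medium and the sort, whose part was not tested. WT and KO iPSCs were 3 clones each, taken as Nanog-GFP+ cells at day 15 and grown in puromycin without doxycycline. Since the reporter and the selection both use Nanog, the presence of Nanog in iPSCs was set by how they were chosen. The 3 WT embryonic stem cell (ESC) libraries came from 1 parental line, Clone J, and the 3 KO ESC libraries from 3 clones of it, genotyped as KO. Replicates of one group may share a culture or parental line, so tests measure the spread between these libraries, part of which may be technical.

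Naive pluripotency is the ground state of mouse ESCs. LIF, acting through STAT3, and WNT signals, which relieve repression by Tcf7l1, feed a circuit of transcription factors that bind each other's regulatory regions together with Oct4 and Sox2. Tfcp2l1 is a target of both inputs, Esrrb is the best known target of the WNT input, Tbx3 and Klf5 are tied to LIF and related signals, and Nanog and Sall4 belong to the core shared with Oct4 and Sox2. Esrrb and Nr5a2 are orphan nuclear receptors, Klf2 and Klf5 relatives of the reprogramming factor Klf4, Prdm14 a repressor of FGF signalling and of de novo DNA methylation, and Zfp42 (Rex1) a zinc finger gene used as a marker of the naive state. Each is low or absent in most fibroblasts, except that Klf and Tbx genes also work in other tissues.

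The genes lie at separate loci. In GRCm38, Nanog spans chr6:122707489-122714633 (plus strand), Sall4 chr2:168748332-168767943 (minus strand), Zfp42 chr8:43295063-43306980 (minus strand), Esrrb chr12:86361117-86521628 (plus strand) and Nr5a2 chr1:136842571-136960448 (minus strand). Tfcp2l1 spans chr1:118627945-118685168 (plus strand), Prdm14 chr1:13113457-13127163 (minus strand), Klf2 chr8:72319033-72321656 (plus strand), Klf5 chr14:99298691-99315036 (plus strand) and Tbx3 chr5:119670669-119684724 (plus strand). Counts were summed over the exons of each gene. RefSeq start sites (GRCm38.p6) gave a promoter window for 6 of the 10 genes, 9 windows in all. Of those 6 genes, Nanog and Zfp42 held the octamer core TTTGCAT bound by Oct4 in the 250 bases before a start, and their windows are shown because Oct4 and Sox2 are the factors that the cassette supplies. Capitals mark the octamer core, the SOX core CATTGT, the KLF site GGGTGTGG and the STAT site TTCNNNGAA, each searched on both strands. The Esrrb window holds the only STAT site among the 9.
Nanog, chr6:122707239-122707488, plus strand: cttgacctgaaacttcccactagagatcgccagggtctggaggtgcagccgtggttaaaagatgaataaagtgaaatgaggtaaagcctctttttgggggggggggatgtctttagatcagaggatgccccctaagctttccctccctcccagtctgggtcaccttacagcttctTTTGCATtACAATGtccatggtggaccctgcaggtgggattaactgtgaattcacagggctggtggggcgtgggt
Zfp42, chr8:43307010-43307259, minus strand: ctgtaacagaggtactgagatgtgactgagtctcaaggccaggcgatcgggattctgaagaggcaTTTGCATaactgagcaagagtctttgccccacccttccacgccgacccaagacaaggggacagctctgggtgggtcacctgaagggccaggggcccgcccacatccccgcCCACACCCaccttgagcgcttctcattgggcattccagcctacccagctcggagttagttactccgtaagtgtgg
Esrrb, chr12:86360867-86361116, plus strand: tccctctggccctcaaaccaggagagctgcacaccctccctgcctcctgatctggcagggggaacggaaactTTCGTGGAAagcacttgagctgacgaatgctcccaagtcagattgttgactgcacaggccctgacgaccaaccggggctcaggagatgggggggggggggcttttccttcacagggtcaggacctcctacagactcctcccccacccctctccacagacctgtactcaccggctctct
In the Nanog window the octamer core lies at -75 to -69 from the start and a SOX core on the opposite strand at -67 to -62, with 1 base between them. In the Zfp42 window the octamer core lies at -185 to -179 and a KLF site on the opposite strand at -75 to -68. Among all 32851 RefSeq windows of this length, 4.12% held the octamer core, 10.7% the SOX core, 3.2% the KLF site and 7.02% the STAT site. The motif AAGGTCA, recognised by Esrrb and Nr5a2 and present in 4.08% of windows, was in none of the 9. These matches describe letters, not binding.

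Libraries held 19224103 to 39610939 counts. Zfp266 itself had 1266 to 3293 normalised counts over the 36 libraries and was called lower in KO in iPSCs alone (log2FC -0.39, DESeq2 FDR 9.95e-06). It was higher in KO at D3 (log2FC 0.32, DESeq2 FDR 0.00883). Cas9 indels alter a transcript's sequence, so a gene count does not check the genotype. The strand setting of the counting is not given in the sources used here, and Tbx3 overlaps antisense Tbx3os1 (at most 49.9 normalised counts in a library) and Sall4 overlaps Gm14261 (at most 22.2). Fibroblast markers (Thy1, Col1a1, Col1a2, Col3a1, Twist1 and Prrx1) summed to 413938 to 429508 in WT MEFs and 84.0 to 105 in WT ESCs. MEF KO replicate 3 stood apart from its group. The chi-square per gene between its counts and those of replicates 1 and 2 was 99.2 and 103, against 3.16 to 47.6 for every other pair of replicates in the 12 groups. Its fibroblast markers summed to 551704 normalised counts, against 386142 and 389486 in KO replicates 1 and 2, its epithelial markers to 413 against 2929.5 and 2733, and its LIF pathway genes to 90258 against 43569 and 42653. A normalised count is the read count divided by the size factor of its library, and values below are given for replicates 1, 2 and 3 in that order, or as mean ± SD with n = 3 per group. In a sorted or cultured population, fewer cells expressing a gene and less RNA per cell cannot be told apart. "Called" means a Benjamini-Hochberg FDR under 0.05 over all genes tested.

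In pluripotent cells all 10 genes were expressed, over a wide range. Per kb of exon, the WT ESC mean was highest for Zfp42, at 10753 ± 439 normalised counts per kb. Klf2 followed with 4626 ± 637, Nanog with 3392 ± 91.8 and Esrrb with 2873 ± 199. Sall4 had 1521 ± 155 normalised counts per kb, Tfcp2l1 1315 ± 139 and Klf5 980.5 ± 44.5. Nr5a2 (354 ± 15.8), Tbx3 (276 ± 21.7) and Prdm14 (152 ± 9.22) were the least abundant per kb. Neighbours in this order did not overlap between libraries, except Sall4 and Tfcp2l1. The level of Zfp42 is uncertain, because the counted pseudogene Zfp42-ps1 had 4594 ± 113 normalised counts in WT ESCs beside 20227 ± 826 for Zfp42, and similar sequence can divide reads between them. Zfp42-ps1 had 260.2 ± 67.5 in WT and 889.9 ± 70.9 in KO at D7.

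**Figure D1:**
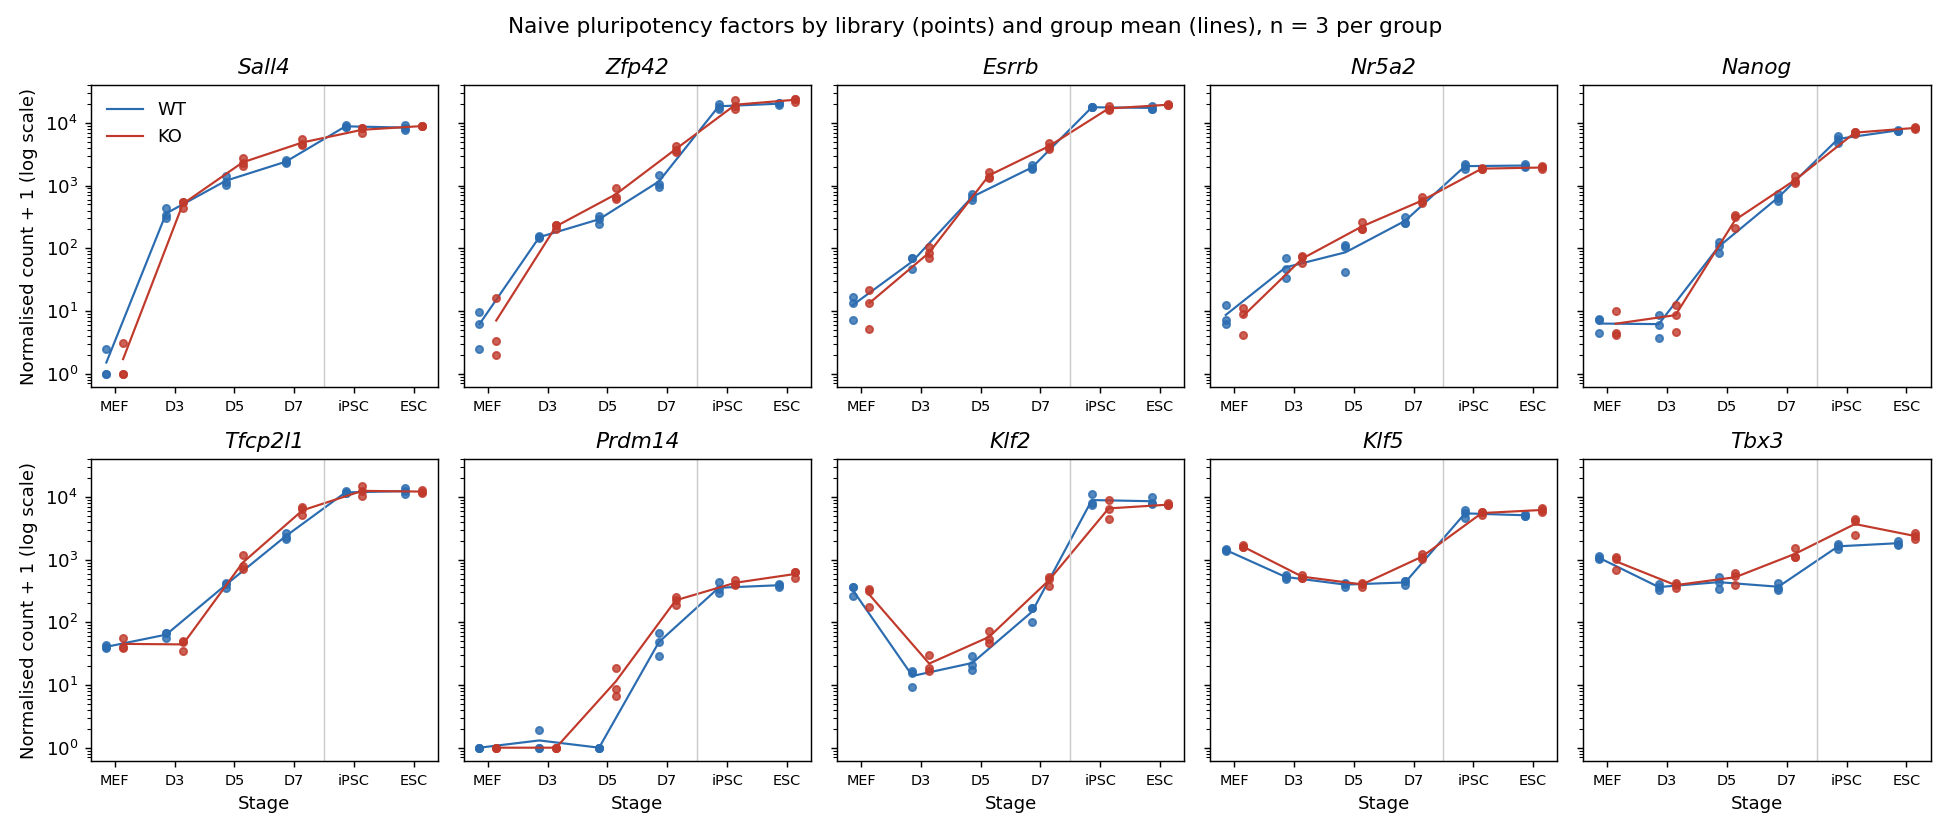
Normalised counts plus 1 on a log axis (vertical) at each of 6 stages (horizontal), with 1 point per library and lines through group means, WT in blue and KO in red. Sall4, Zfp42, Esrrb and Nr5a2 were called over 2-fold above MEFs by D3, Nanog and Tfcp2l1 by D5, while Klf2, Klf5 and Tbx3 first fell.

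The genes became active one after another in WT cells. A gene was taken as active at the first stage where it was called above MEFs of its genotype by more than 2-fold. Sall4, Zfp42, Esrrb and Nr5a2 met this at D3, Nanog and Tfcp2l1 at D5, Prdm14 at D7, and Klf2 and Klf5 only in iPSCs. Tbx3 did not meet it by iPSCs in WT cells. Between MEFs and D3, 5 of 10 genes rose in WT (background 33.8% of genes tested) and 4 in KO (background 33.8%), and Klf2, Klf5 and Tbx3 fell in both. From D3 to D5, 6 rose in WT (background 12.4%) and 8 in KO (background 14.5%). From D5 to D7, 8 rose in WT (background 13.5%) and 10 in KO (background 20.3%). All 10 rose from D7 to iPSC in WT (background 35.8%) and in KO (background 35.3%). The median log2FC of the 10 was 1.84 from D5 to D7 in WT, beside 0.02 for all genes, and 3.001 from D7 to iPSC, beside 0.01. Consecutive steps share the libraries of the stage between them.

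Sall4, a zinc finger partner of Oct4 and Nanog, was one of the genes active by D3, and the steepest among them. In WT MEFs it had 0, 1 and 0 reads and in KO MEFs 0, 0 and 2. At D3 the WT libraries held 438, 303 and 334 normalised counts and the KO libraries 546, 542 and 442. The D3 to MEF ratio was 710.2 in WT, with an exact Poisson 95% interval of 127 to 28051 from the 1 read in MEFs, and 722 in KO (199.98 to 5965, from 2 reads). These intervals cover counting error only. Relative to its own WT ESC mean, Sall4 stood at 4.26% ± 0.841 at D3, 14.2% ± 2.45 at D5 and 28.5% ± 1.84 at D7 in WT. At D7 no other gene of the set had come as close to its ESC level in WT cells, and its 3 libraries lay above those of Tbx3, the next in order.

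Nanog, the homeodomain factor at the centre of the circuit, came later. It had 3.48, 6.06 and 6.37 normalised counts in WT MEFs and 2.75, 5.00 and 7.75 at D3, ranges that overlap (log2FC -0.10, DESeq2 FDR 0.899). At D5 the WT libraries had 82.5, 106 and 125, all above D3 (log2FC 4.35 ± 0.40 SE, DESeq2 FDR 1.6e-25). At D7 they had 562, 745 and 641, which was 8.54% ± 1.21 of the WT ESC mean. Zfp42 was found at 8.70, 1.51 and 5.31 normalised counts in WT MEFs, and 5, 1 and 5 reads lie behind these. It rose to 145, 155 and 148 at D3 and to 1044, 1483 and 962 at D7. Although Zfp42 was called so early, it stood at only 5.75% ± 1.39 of its ESC level at D7, lower than every other gene but Klf2.

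The nuclear receptors were both active by D3. Esrrb had 12.2, 6.06 and 15.9 normalised counts in WT MEFs, 69.7, 45.0 and 67.8 at D3, 669, 735 and 579 at D5 and 1902, 2119.5 and 1830.4 at D7. No library overlapped between successive stages, and the step from D3 to D5 was the largest (log2FC 3.44 ± 0.15 SE, DESeq2 FDR 9.13e-107). Nr5a2, also called Lrh-1, had 5.22, 6.06 and 11.7, then 67.8, 45.0 and 33.0 at D3 and 113, 102 and 40.6 at D5. Its D3 and D5 ranges overlap, with WT replicate 3 at D5 inside the D3 range. That step was called (log2FC 0.81 ± 0.23 SE, DESeq2 FDR 0.00407) but not with any 1 of D3 WT replicate 3, D5 WT replicate 1 or D5 WT replicate 2 left out. At D7 Nr5a2 had 253, 318 and 250.02, 13.1% ± 1.85 of WT ESCs, beside 11.2% ± 0.867 for Esrrb.

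Tfcp2l1, the factor on which LIF and WNT inputs meet, was low but not silent in fibroblasts, with 41.7, 37.9 and 39.3 normalised counts in WT MEFs. It had 55.0, 66.0 and 66.9 at D3 in WT, a small rise (log2FC 0.66 ± 0.24 SE, DESeq2 FDR 0.0106), then 349, 414 and 428 at D5 and 2321, 2654 and 2139 at D7. By D7 it stood at 19.1% ± 2.11 of WT ESCs, a range that overlaps that of Tbx3. Prdm14 was the last of the silent genes to appear. No read was found in MEFs or in WT cells at D5, and 1 read in 1 library at D3, where a count of 0 allows up to 2.31 to 5.22 normalised counts (3 reads) over the 36 libraries. At D7 the WT libraries had 28.4, 66.5 and 47.3, at least 10.98-fold above MEFs at 3 reads per library. This was 12.2% ± 4.89 of WT ESCs, with the widest spread in WT among the 10 genes at D7.

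Klf2, Klf5 and Tbx3 followed another course. MEFs expressed each of them. Klf2 fell from 367, 261 and 359 normalised counts in WT MEFs to 8.25, 16.0 and 14.5 at D3 (log2FC -4.68 ± 0.34 SE, DESeq2 FDR 1.09e-41). It had 28.2, 19.6 and 16.7 at D5 and 170.4, 169 and 99.8 at D7, still below each MEF library and 1.71% ± 0.473 of WT ESCs. The step to iPSCs, at 11251, 7532 and 7967, was larger than that of any other gene of the set (log2FC 5.93, DESeq2 FDR 1.46e-114). Klf5 fell from 1421, 1387 and 1461 to 488, 561 and 537 at D3 (log2FC -1.43 ± 0.10 SE, DESeq2 FDR 2.73e-43) and was at 393, 452 and 451 at D7. Tbx3 fell from 1144, 1007 and 1061 to 329, 359 and 404 (log2FC -1.56 ± 0.20 SE, DESeq2 FDR 4.56e-14) and had 332, 424 and 349.8 at D7. Between D5 and D7 neither Klf5 (log2FC 0.12, DESeq2 FDR 0.495) nor Tbx3 (log2FC -0.24, DESeq2 FDR 0.429) was called in WT. At D3 Tbx3 stood at 19.9% ± 2.07 of WT ESCs and Klf5 at 10.4% ± 0.732, both below their own MEF values.

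**Figure D2:**
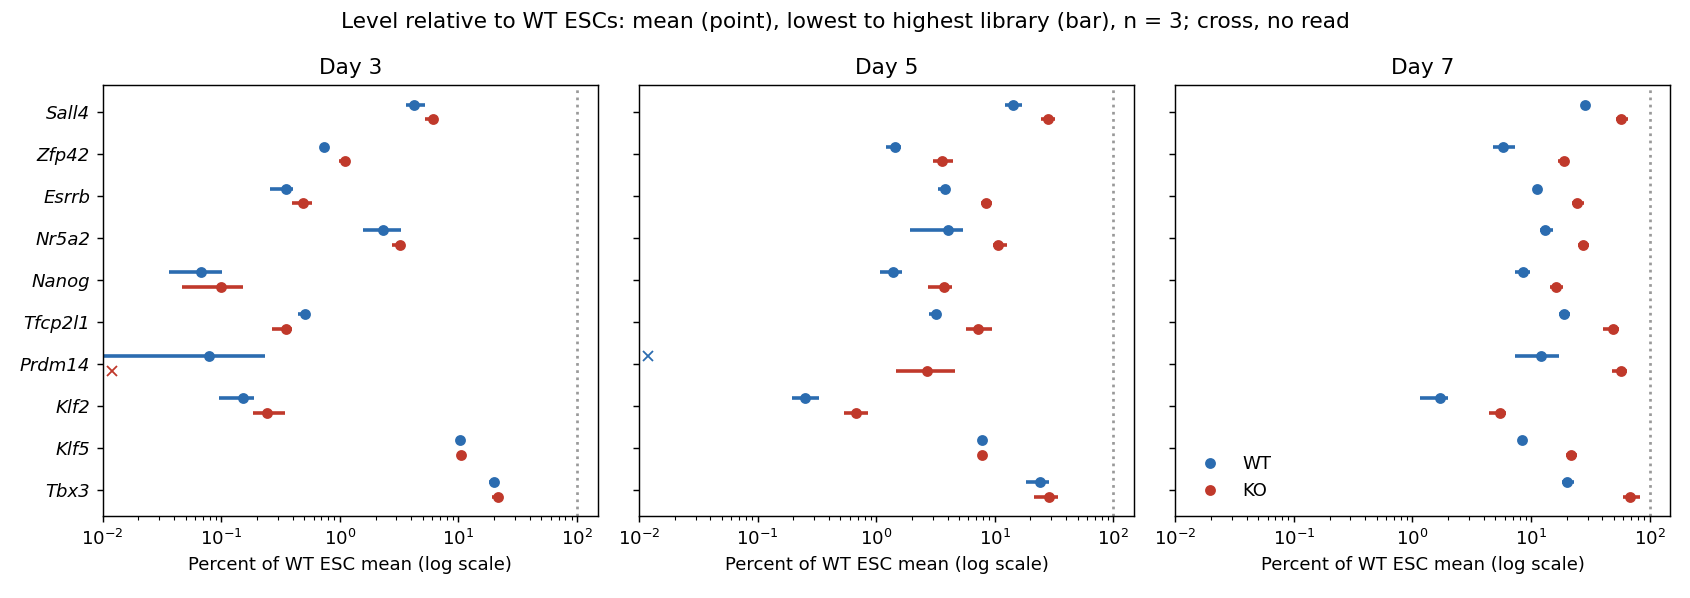
Level of each gene as a percent of its WT ESC mean on a log axis (horizontal) at D3, D5 and D7, with points for means of 3 libraries and bars from the lowest to the highest library, WT in blue and KO in red. At D7 WT means lay between 1.71% (Klf2) and 28.5% (Sall4), and KO means between 5.44% (Klf2) and 67.8% (Tbx3). In KO MEFs, not drawn here, Tbx3 already stood at 51.5%.

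KO and WT cells were compared at each stage to ask when loss of Zfp266 is seen at these genes. No gene of the set was called in MEFs or at D3. In KO MEFs Klf5 had 1590.0, 1723 and 1564 normalised counts, Tbx3 1118, 1023 and 685 and Klf2 312, 340.2 and 173. The low values of Tbx3 and Klf2 are those of replicate 3, the library that stood apart, and without it no gene of the set was called in MEFs either. Of the low genes KO MEFs had 44.3 ± 10.3 of Tfcp2l1, 12.4 ± 8.22 of Esrrb, 7.13 ± 3.59 of Nr5a2, 5.26 ± 3.38 of Nanog and 6.05 ± 7.63 of Zfp42. In MEFs 0.0428% of all genes tested were called by DESeq2, and of the 10 genes 0 had an unadjusted p under 0.05 and 0 were called by edgeR. At D3 0.493% of all genes were called. Here 5 of the 10 had an unadjusted p under 0.05, with Sall4, Zfp42, Esrrb and Nr5a2 higher and Tfcp2l1 lower in KO, and edgeR called 0. The share of all genes with an unadjusted p under 0.05 was not counted, so these 5 have no background beside them. The nearest to the threshold was Sall4, whose KO libraries (546, 542 and 442) lay above the WT libraries (438, 303 and 334; log2FC 0.51 ± 0.14 SE, DESeq2 FDR 0.065). It was called when only the D3 libraries were fitted (DESeq2 FDR 0.0196), and likewise without D3 WT replicate 1 (DESeq2 FDR 0.00403) or D3 KO replicate 3 (DESeq2 FDR 0.035). With the replicate number as a block, Sall4 (DESeq2 FDR 0.00675) and Zfp42 (DESeq2 FDR 0.0139) were called at D3. Zfp42 was also apart (199.6, 232 and 238 in KO against 145, 155 and 148, DESeq2 FDR 0.151), and was called when only the D3 libraries were fitted (DESeq2 FDR 0.0199). The other KO levels at D3 were 391 ± 39.7 for Tbx3, 533 ± 36.6 for Klf5, 67.6 ± 8.99 for Nr5a2, 84.3 ± 16.9 for Esrrb, 20.98 ± 7.48 for Klf2 and 7.59 ± 4.04 for Nanog. The log2 differences of the genes not called at D3, leaving out Prdm14, had 95% Wald intervals within -0.97 to 1.49.

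At D5 the KO libraries stood above the WT libraries for 8 of the 10 genes, against a background of 7.15% of genes called in either direction. All 8 were called higher and their libraries did not overlap, a feature that was not counted over all genes. The median log2FC of the 10 was 1.25, beside -0.01 for all genes. Nanog had 207, 334 and 311 normalised counts in KO against 82.5, 106 and 125 in WT, a 2.72-fold difference (log2FC 1.44 ± 0.17 SE, DESeq2 FDR 1.95e-14). Zfp42 had 665, 898 and 615 against 294, 329 and 245 (log2FC 1.33 ± 0.17 SE, DESeq2 FDR 2.4e-12). Sall4 had 2263, 2714 and 2068 against 1425, 1136 and 1026 (log2FC 0.97 ± 0.13 SE, DESeq2 FDR 2.06e-10).

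The nuclear receptors and Tfcp2l1 shared this difference at D5. Esrrb had 1336, 1646 and 1377 in KO and 669, 735 and 579 in WT (log2FC 1.14 ± 0.11 SE, DESeq2 FDR 7.33e-20), and Nr5a2 200.3, 265 and 203 and 113, 102 and 40.6 (log2FC 1.38 ± 0.21 SE, DESeq2 FDR 1.53e-08). Tfcp2l1 had 713, 1178 and 791 in KO, with replicate 2 above the other two, and 349, 414 and 428 in WT (log2FC 1.17 ± 0.16 SE, DESeq2 FDR 5.25e-10). Klf2 stood low in both, with 45.8, 72.4 and 53.9 in KO and 28.2, 19.6 and 16.7 in WT (log2FC 1.41 ± 0.33 SE, DESeq2 FDR 0.000731), and missed the threshold with edgeR (edgeR FDR 0.0517). Prdm14 had 6, 17 and 10 reads in the KO libraries, 5.72, 17.8 and 7.71 normalised counts, and no read in any WT library. The KO mean was at least 3.42-fold higher, with WT set at 3 reads per library. By the rule above, Prdm14 therefore became active at D5 in KO and at D7 in WT, while 8 of the 9 others had the same first stage in both genotypes. Tbx3, the exception, first met the rule in iPSCs in KO. Klf5 (371, 424 and 410.0 in KO and 407, 372 and 417 in WT) and Tbx3 (394, 619 and 557 and 337, 447 and 526) overlapped between genotypes and were not called, with 95% Wald intervals of the log2 difference within -0.20 to 0.66.

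At D7 all 10 genes were called higher in KO, and no KO library overlapped a WT library for any of them. The share of all genes whose libraries did not overlap was not counted. Of all genes tested 29.4% were called at this stage, in either direction. The median log2FC of the 10 was 1.37, beside -0.04 for all genes, and their own values ran from 0.92 (Nanog) to 2.24 (Prdm14). Prdm14 had 229, 252 and 189 normalised counts in KO against 28.4, 66.5 and 47.3 in WT, a 4.71-fold difference (log2FC 2.24 ± 0.24 SE, DESeq2 FDR 3.56e-18). Tbx3 had 1089, 1513 and 1113 against 332, 424 and 349.8 (log2FC 1.75 ± 0.20 SE, DESeq2 FDR 4.7e-16), and Klf5 1007, 1247 and 1086 against 393, 452 and 451 (log2FC 1.37 ± 0.10 SE, DESeq2 FDR 2.03e-36). Both had shown no call at D5. Klf2 had 522, 494 and 379 against 170.4, 169 and 99.8 (log2FC 1.67 ± 0.26 SE, DESeq2 FDR 5.68e-09).

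Of the 7 genes called at D5 that had reads in WT then, Zfp42 had the largest fold at D7, with 3759, 4252 and 3420.5 in KO and 1044, 1483 and 962 in WT (log2FC 1.71 ± 0.16 SE, DESeq2 FDR 5.63e-24). Tfcp2l1 had 6498, 6794 and 5065 and 2321, 2654 and 2139 (log2FC 1.37 ± 0.16 SE, DESeq2 FDR 7.42e-16). Esrrb had 4058, 4823 and 3826 and 1902, 2119.5 and 1830.4 (log2FC 1.12 ± 0.11 SE, DESeq2 FDR 1.08e-21). Nr5a2 had 560.3, 646 and 520.2 and 253, 318 and 250.02 (log2FC 1.07 ± 0.19 SE, DESeq2 FDR 4.46e-07), and Sall4 4671, 5554 and 4414 and 2394, 2564 and 2254 (log2FC 1.02 ± 0.13 SE, DESeq2 FDR 1e-12). Nanog, with 1173, 1412 and 1103 in KO and 562, 745 and 641 in WT, showed the smallest difference (log2FC 0.92 ± 0.15 SE, DESeq2 FDR 8.86e-09). Every KO library at D7 lay below the WT ESC mean of every gene. Tbx3 stood at 67.8% ± 13.01 of the WT ESC mean, Sall4 at 58.0% ± 7.10, Prdm14 at 57.4% ± 8.23 and Tfcp2l1 at 49.3% ± 7.45, and each overlapped its neighbour in that order. KO MEFs already held Tbx3 at 51.5% ± 12.4 of the WT ESC mean. KO cells at D7 were not called above KO MEFs for Tbx3 (log2FC 0.40, DESeq2 FDR 0.0642). Klf5 at D7 in KO was still called below KO MEFs (log2FC -0.55, DESeq2 FDR 6.39e-08), and Klf2 above them (log2FC 0.76, DESeq2 FDR 0.0052). Nanog was at 16.2% ± 2.13 and Klf2 at 5.44% ± 0.884, the lowest pair of the 10.

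Other signs differed at D7 as well, where 29.4% of all genes were called in either direction. The 6 fibroblast markers summed to 6826 to 20667 normalised counts in KO and 21718 to 33137 in WT, and 3 of the 6 fell in KO, Col1a1 from 12313 ± 2135 in WT to 5173 ± 2587 in KO (DESeq2 FDR 0.0107), Prrx1 from 720.5 ± 84.4 in WT to 437 ± 78.7 in KO (DESeq2 FDR 2.02e-05) and Thy1 from 357 ± 71.1 in WT to 217 ± 97.8 in KO (DESeq2 FDR 0.0429). At D5 none of the 6 was called and the sums, 12591 to 18878 in KO and 15484 to 19169 in WT, overlapped. The part of remaining fibroblast RNA in the D7 difference was not tested. The summed reads of Pou5f1, Sox2, Klf4 and Myc, which cannot be told apart between the cassette and the endogenous genes, were 73057 to 89781 in KO and 92187 to 108844 in WT at D7. Sox2, Klf4 and Myc fell in KO, by 0.51, 0.68 and 0.68 on the log2 scale (DESeq2 FDR 0.0101, 0.00118 and 0.00212), and Pou5f1 was 44937 ± 2709 in WT and 43867 ± 3543 in KO (DESeq2 FDR 0.857). None of the 4 was called at D5. Their part in the differences of the naive factors was not tested.

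**Figure D3:**
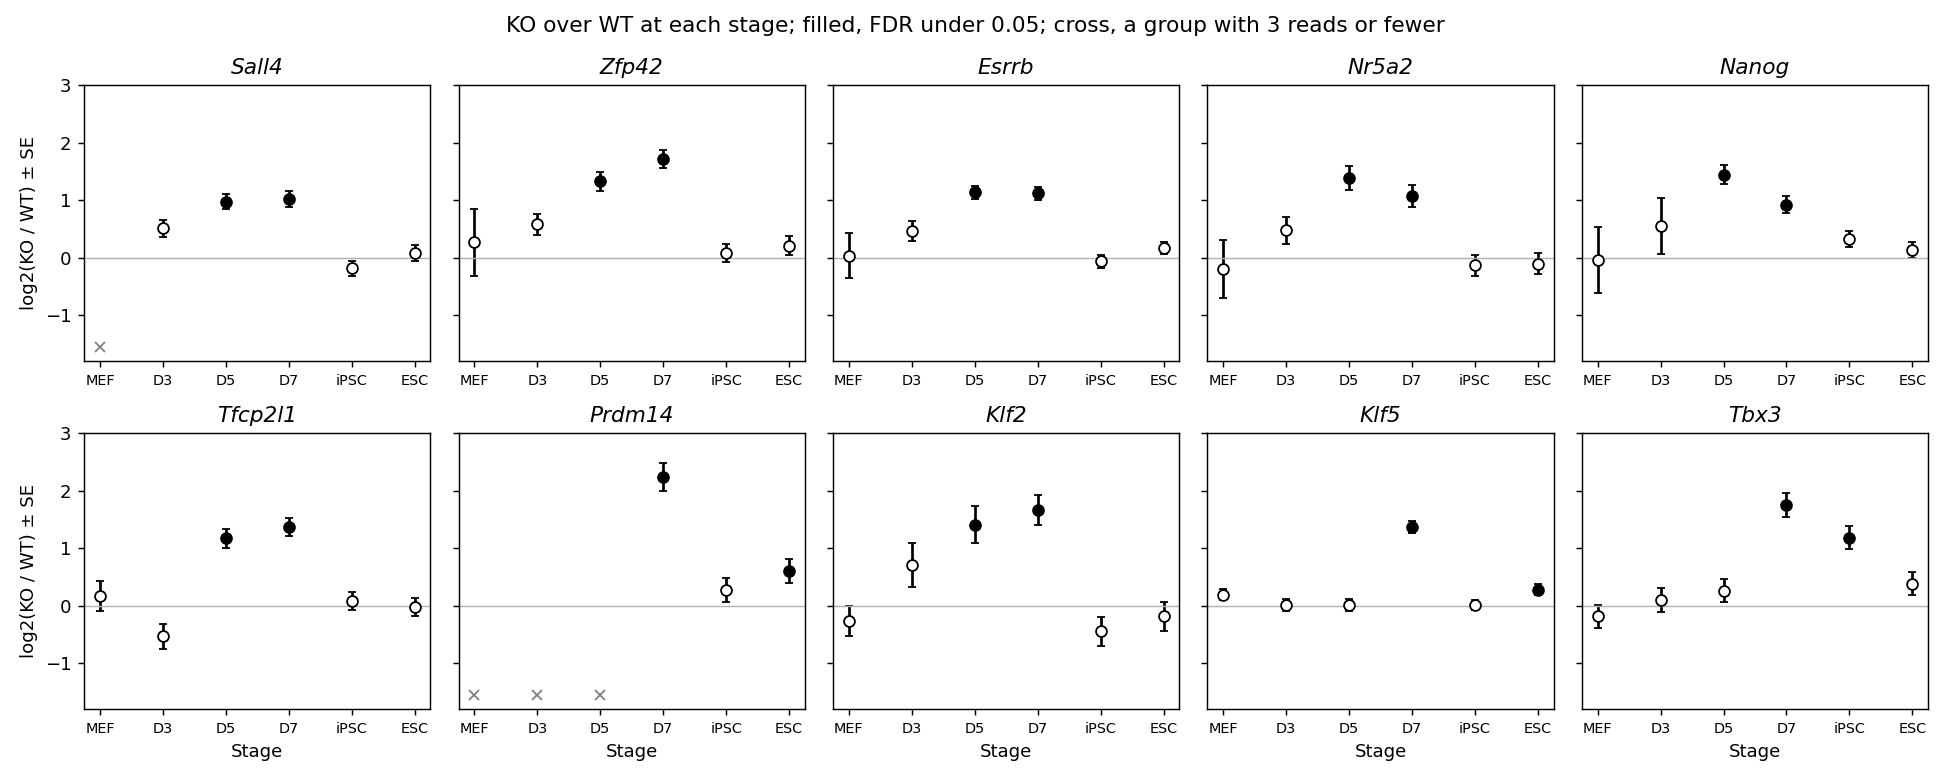
Log2 of KO over WT with its standard error (vertical) at each stage (horizontal) for the 10 genes, from the fit to all 36 libraries. Filled points passed an FDR of 0.05, and crosses mark stages where a group had 3 reads or fewer in all. Klf5 and Tbx3 were near 0 at D5 (log2FC 0.01 and 0.26) and above 1 at D7.

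Whether the KO effect itself differed between stages was tested with interaction terms. From D3 to D5 it grew for Tfcp2l1 (difference in log2FC 1.70, DESeq2 FDR 9.54e-06), against a background of 0.0640%, and the KO libraries of Tfcp2l1 lay below the WT libraries at D3 (33.4, 49.3 and 47.6 against 55.0, 66.0 and 66.9). From D5 to D7 it grew for Klf5 (1.36, DESeq2 FDR 1.69e-15) and Tbx3 (1.49, DESeq2 FDR 4.79e-05), with a background of 5.84%. For the 8 others, called at both days, the effects at D5 and D7 were not called different in the fit to all libraries. That of Nanog changed by -0.52 (DESeq2 FDR 0.158), and was called with the replicate block and without D5 KO replicate 1. That of Prdm14, with no read in WT at D5, changed by -3.52 (DESeq2 FDR 0.0673). It was called with the compared groups only. From D7 to iPSC the KO effect shrank for 9 of the 10, from -2.11 for Klf2 to -0.59 for Nanog, with a background of 21.9%. The call for Nanog (DESeq2 FDR 0.0211) was lost without D7 KO replicate 2, D7 WT replicate 1, D7 WT replicate 3 or iPSC WT replicate 3. Tbx3 was the exception, with a difference of -0.57 (DESeq2 FDR 0.141). Between iPSC and ESC no gene of the set was called different by DESeq2 (background 1.47%), 2 had an unadjusted p under 0.05, and edgeR called 0. The share of all genes at that unadjusted p was not counted.

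KO cells at D5 were also set against WT cells at D7, to ask whether their levels had reached those of WT at D7. For 6 of the 10 genes KO D5 was lower than WT D7, none was called higher, and 16.0% of all genes were called in either direction. These libraries are the ones used in the comparisons at D5 and D7. Tfcp2l1 at D5 in KO (713, 1178 and 791) was below WT at D7 (2321, 2654 and 2139; log2FC -1.41 ± 0.16 SE, DESeq2 FDR 1.16e-15). The log2FC of KO D5 over WT D7 was -2.23 (DESeq2 FDR 1.06e-08) for Prdm14, -1.36 (DESeq2 FDR 4.41e-05) for Klf2 and -1.19 (DESeq2 FDR 1.51e-12) for Nanog. It was -0.68 (DESeq2 FDR 0.000608) for Zfp42 and -0.43 (DESeq2 FDR 0.00219) for Esrrb. Sall4 overlapped, with 2263, 2714 and 2068 in KO at D5 and 2394, 2564 and 2254 in WT at D7 (log2FC -0.03, DESeq2 FDR 0.906, 95% Wald interval -0.30 to 0.23). Nr5a2 overlapped too (log2FC -0.30, DESeq2 FDR 0.328, interval -0.68 to 0.09). Klf5 (log2FC -0.10, DESeq2 FDR 0.579) and Tbx3 (log2FC 0.51, DESeq2 FDR 0.0699) were not called either. Neither of them was called between D5 and D7 in WT, or between genotypes at D5, so this comparison cannot show a lead for them. Tbx3 was called higher in KO at D5 when TMM scaling replaced the size factors, when only these libraries were fitted and without D5 KO replicate 1.

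In established clones the difference was smaller, by the interaction test above for 9 of the 10 genes. In iPSCs 1 of the 10 genes was called, against 16.3% of all genes. Tbx3, a T-box factor, had 4490.4, 4146 and 2458 normalised counts in the KO clones and 1746, 1667 and 1475 in the WT clones (log2FC 1.18 ± 0.20 SE, DESeq2 FDR 2.61e-07). KO clone 3 was well below the other two KO clones but above every WT clone. With any 1 of the 6 clones left out the log2FC stayed between 1.02 and 1.41 (largest DESeq2 FDR 0.000162). KO clone 1 also had the highest sum of primitive endoderm markers (Gata6, Gata4, Sox17, Sox7 and Foxa2), 624 normalised counts against 68.7 to 130.4 in the 5 other iPSC clones. Of these markers 3 of 5 were called higher in KO iPSCs, as were 2 of 4 epithelial, 1 of 6 fibroblast and 1 of 3 trophoblast markers, and their part in the level of Tbx3 was not tested. These markers varied so much between KO clones that the calls do not describe all KO clones. Primitive endoderm sums of KO clones 2 and 3 were 96.4 and 82.8, within the range of the WT clones. In KO iPSCs Gata6 had 77.3 ± 109, Krt8 388 ± 375, Krt18 389 ± 403, Col1a2 23.6 ± 30.3 and Krt7 37.2 ± 46.0. Nanog had 7067, 7142 and 6757 in KO clones, all above the WT clones at 4853, 5619 and 6216, but was not called (log2FC 0.33 ± 0.14 SE, DESeq2 FDR 0.0929). It was called with the replicate block (DESeq2 FDR 0.00327) and without iPSC WT replicate 3 (DESeq2 FDR 0.0459). The labels give no link between WT and KO clones of the same number, so the block has no known basis in iPSCs. Klf2 varied widely between clones, from 4379 to 8787 in KO and 7532 to 11251 in WT, and was called lower in KO when KO replicate 2 was left out (DESeq2 FDR 0.0384). The 9 log2 differences not called in iPSCs had 95% Wald intervals within -0.93 to 0.68.

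In ESCs 2 genes were called higher in KO, against a background of 10.1%. Prdm14 had 507, 625 and 638 in KO clones and 362, 398 and 407 in the parental line (log2FC 0.60 ± 0.21 SE, DESeq2 FDR 0.0426), and Klf5 5703, 6746 and 6138 and 4918, 5019.8 and 5360.0 (log2FC 0.28 ± 0.09 SE, DESeq2 FDR 0.0333). Their libraries did not overlap, but edgeR called neither (edgeR FDR 0.13 and 0.0671), and both calls were lost without ESC KO replicate 2 or 3 or ESC WT replicate 1 or 2. Without ESC WT replicate 3 only that of Prdm14 was lost. The 8 others had 95% Wald intervals within -0.67 to 0.77. Between iPSCs and ESCs, WT cells differed at 1 gene (background 3.20%), with Nanog at 7548, 7834 and 7434 in ESCs and 4853, 5619 and 6216 in iPSCs (log2FC 0.45 ± 0.14 SE, DESeq2 FDR 0.0471). KO cells also differed at 1 gene (background 6.45%), with Tbx3 at 2639, 2387 and 2134 in ESCs and 4490.4, 4146 and 2458 in iPSCs (log2FC -0.63 ± 0.20 SE, DESeq2 FDR 0.0281), and its libraries overlap. Neither was called by edgeR. Nanog lost its call without any 1 of the 3 ESC WT libraries or of iPSC WT replicates 1 and 2, and Tbx3 without ESC KO replicate 2 or 3 or iPSC KO replicate 1 or 2.

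None of the other levels in pluripotent cells was called different between genotypes. In normalised counts, Esrrb had 17767 ± 104 in WT and 16986 ± 1429 in KO iPSCs, and 17371 ± 1206 in WT and 19515 ± 374 in KO ESCs. Tfcp2l1 had 11824 ± 620.3 in WT and 12509 ± 2236 in KO iPSCs, and 12409.6 ± 1315 in WT and 12172 ± 588 in KO ESCs. Zfp42 had 18428 ± 1816 in WT and 19531 ± 3458 in KO iPSCs, and 20227 ± 826 in WT and 23406 ± 1565 in KO ESCs. In ESCs the KO libraries of Esrrb and Zfp42, and those of Nanog and Tbx3, lay above the WT libraries without a call, beside Klf5 and Prdm14, which were called. How many of all genes lay apart in this way was not counted. The median log2FC of the 10 genes in ESCs was 0.15. Nr5a2 had 2042 ± 186 in WT and 1863 ± 19.6 in KO iPSCs, and 2089 ± 93.1 in WT and 1941 ± 111 in KO ESCs, and Sall4 8823 ± 323 in WT and 7773 ± 808 in KO iPSCs, and 8419.9 ± 858 in WT and 8907 ± 117 in KO ESCs. The KO iPSC libraries of Sall4 lay below those of WT, also without a call. Klf5 had 5475 ± 826 in WT and 5531 ± 324 in KO iPSCs, and Prdm14 355 ± 75.6 and 427 ± 42.8. In ESCs Nanog had 8311 ± 263 in KO, Klf2 8544 ± 1177 in WT and 7538 ± 365 in KO, and Tbx3 1827 ± 144 in WT.

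Genes around the circuit were read from lists. Of 10 other naive-state genes (Gbx2, Nr0b1, Tcl1, Dppa3, Tdh, Fbxo15, Tet2, Pecam1, Ncoa3 and Tfap2c), 6 were higher in KO at D5 and 9 at D7, and none was lower, against 7.15% and 29.4% of all genes called in either direction. Their median log2FC was 0.80 at D5 and 1.36 at D7, beside -0.01 and -0.04 for all genes. Tfap2c was the one not called at D7. Tcl1, a cofactor of AKT, rose at D5 from 25.3 ± 19.3 in WT to 271 ± 106 in KO (DESeq2 FDR 7.33e-20), Nr0b1, an orphan receptor that binds Oct4, from 8.39 ± 2.85 in WT to 35.4 ± 15.7 in KO (DESeq2 FDR 2.91e-06), and Fbxo15, an F-box gene used as an ESC marker, from 80.5 ± 21.5 in WT to 163 ± 51.0 in KO (DESeq2 FDR 0.00232). At D7 Dppa3, a maternal factor also called Stella, rose from 23.3 ± 14.7 in WT to 163 ± 51.0 in KO (DESeq2 FDR 8.46e-05), and Gbx2, a homeobox target of STAT3, from 7.13 ± 6.21 in WT to 53.7 ± 6.56 in KO (DESeq2 FDR 0.000436). Gbx2 was 2.27 ± 3.92 in WT and 1.38 ± 1.57 in KO (DESeq2 FDR 0.823) at D5. Pecam1, Ncoa3, Nr0b1, Tcl1 and Fbxo15 also rose by over 2-fold at D7, with log2FC of 1.01 (Ncoa3) to 1.81 (Fbxo15).

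Signalling genes upstream of the circuit were read the same way. Of 7 genes of the LIF pathway (Lifr, Il6st, Jak1, Stat3, Socs3, Pim1 and Pim3) none was called at D5 by DESeq2 and 2 rose at D7, among them Lifr, the LIF receptor, from 540.3 ± 28.0 in WT to 992 ± 88.3 in KO (DESeq2 FDR 3.99e-06). Pim3 was the other, and 2 of 7 is close to the 29.4% of all genes called at D7. Of 6 genes of the WNT input (Tcf7l1, Ctnnb1, Tcf7, Lef1, Axin2 and Gsk3b) none was called at D5 and 3 rose at D7, beside the same share of all genes. Tcf7l1, the repressor in this input, rose from 319 ± 7.51 in WT to 672 ± 63.7 in KO (DESeq2 FDR 9.86e-13), and Axin2, a target of the pathway, from 24.4 ± 14.6 in WT to 68.7 ± 23.5 in KO (DESeq2 FDR 0.000177). Genes of the formative and primed states, which follow the naive state, were Otx2, Fgf5, Pou3f1, Dnmt3b, Sox3 and Zic2. None was called at D5, and 4 of 6 rose at D7. The median log2FC at D7 was 0.03 for the LIF list, 0.21 for the WNT list and 1.61 for this list. Otx2 rose from 52.3 ± 32.0 in WT to 398 ± 103 in KO (DESeq2 FDR 3.2e-09), Dnmt3b, a de novo DNA methyltransferase, from 414 ± 44.9 in WT to 1499 ± 318 in KO (DESeq2 FDR 1.15e-12), Zic2 from 108 ± 5.57 in WT to 279 ± 5.61 in KO (DESeq2 FDR 2.54e-07) and Pou3f1 from 2.71 ± 1.17 in WT to 13.8 ± 6.02 in KO (DESeq2 FDR 0.00432). These KO means at D7 were still below those of WT ESCs. There Otx2 had 1070 ± 34.8, Dnmt3b 5653 ± 472, Zic2 468 ± 37.6 and Pou3f1 214 ± 19.1. Zic2 was also expressed in WT MEFs, at 361 ± 33.4.

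Markers of other cell types gave the following, beside 29.4% of all genes called at D7. At that stage 1 of 4 epithelial and 1 of 3 trophoblast markers were called, which is close to this share. Of 4 epithelial markers none was called at D5 and Krt18 rose at D7 from 541 ± 79.1 in WT to 2044 ± 306 in KO (DESeq2 FDR 0.00133), while Cdh1 was 16193 ± 1514 in WT and 17771 ± 652 in KO (DESeq2 FDR 0.705). None of 5 primitive endoderm markers was called at D5 or D7, and Gata6 was 154 ± 13.6 in WT and 117 ± 10.9 in KO (DESeq2 FDR 0.686) at D7. Of the trophoblast markers 3 were measured here, and Eomes rose at D7 from 27.7 ± 5.50 in WT to 93.9 ± 12.53 in KO (DESeq2 FDR 1.55e-05). Their part in the differences of the naive factors was not tested.

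**Figure D4:**
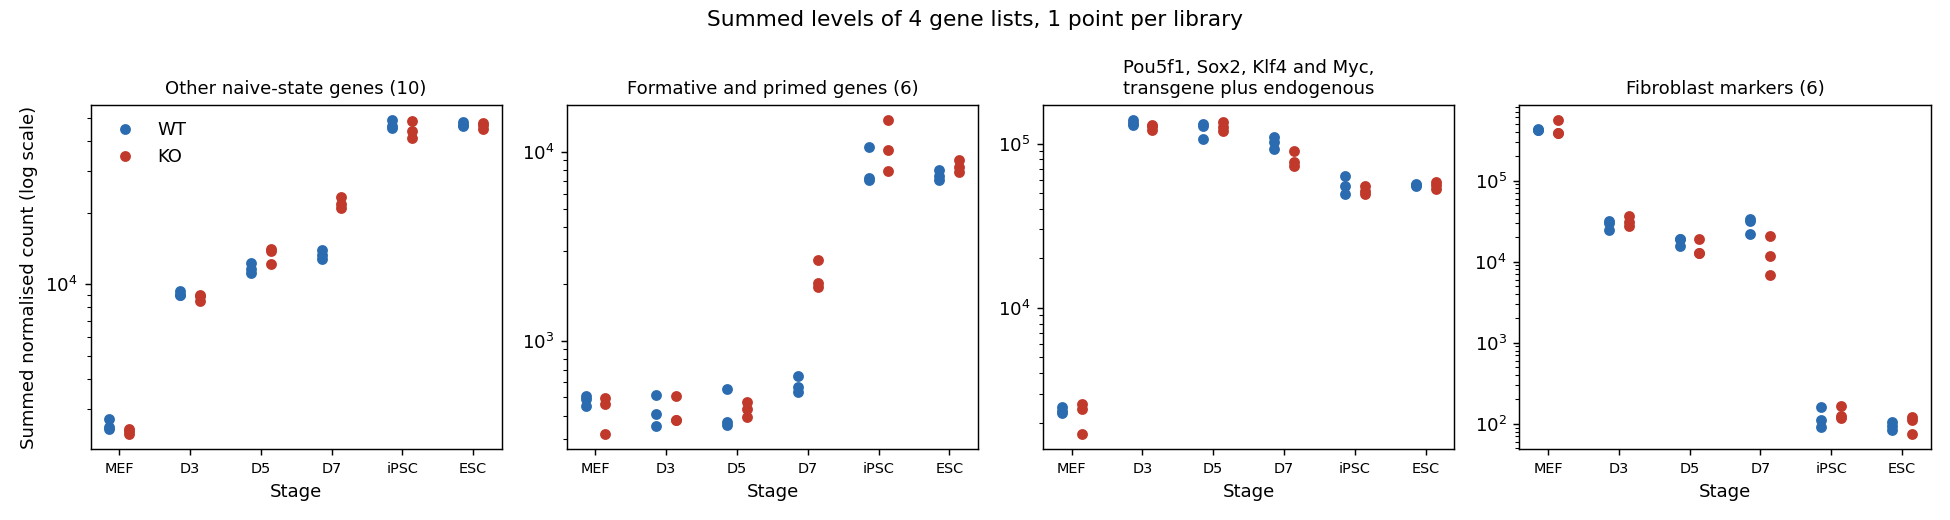
Summed normalised counts of 4 gene lists (vertical, log axis) by stage (horizontal), 1 point per library, WT in blue and KO in red. At D7 the KO sums lay above WT for the 10 other naive-state genes (20895 to 23279 against 12804 to 13933) and the 6 formative and primed genes (1919 to 2663 against 536 to 647), and below WT for the reprogramming factors and the fibroblast markers.

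The pattern of the set over the 36 libraries was compared with every other gene as a description. The mean of the 10 genes, each scaled to unit variance on log2(normalised count + 1), was correlated with 18414 genes of mean count 10 or more. The closest outside the set were Eras, a RAS gene of ESCs, Triml2, Mylpf, Sall1, a relative of Sall4, and Paics, a purine synthesis enzyme, with Pearson r of 0.990 to 0.991. Within the set r ran from 0.754 for Klf5, 0.759 for Tbx3 and 0.785 for Sall4 to 0.974 for Nanog, each of which is part of the mean. Points share 6 stages, with a large step between D7 and iPSCs.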

How the data were processed

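Libraries were made from total RNA with an NEB Ultra II stranded mRNA kit. Per the labels and the study's methods, the authors trimmed reads (Cutadapt), aligned them to GRCm38 (STAR) and deposited raw counts per gene from Rsubread. The normalised values, a signal of counts divided by 1 DESeq2 size factor per library, were also deposited by the authors, and recomputing them from the counts gave the same values. A batch-corrected log matrix and the authors' own comparison columns (fold changes and p-values) were not used. Library preparation dates, for which that matrix was corrected, are not given in the sources used here, so their part was not tested, and the counting rules (annotation release, strand) are not given either.

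The 10 genes were matched by symbol. Counts of all 36 libraries were fitted in 1 DESeq2 1.42.0 model (R 4.3.3) with 1 factor of 12 groups, median-ratio size factors, Wald tests, default independent filtering and no shrinkage, and FDR values were adjusted over all genes tested. All tests were two-sided. Alternatives were edgeR 4.0.16 (quasi-likelihood, TMM), TMM scaling in DESeq2, a filter of 10 counts in 3 libraries, a fit of the compared groups alone, replicate number as a block, and leaving out each library. The model was tested on simulated data. A library's depth sets the value of a floor of 3 reads, 2.31 to 5.22 normalised counts. A normalised count per kb was divided by merged exon length from GENCODE M21. Named were all 10 genes, genes of the lists changed by over 2-fold at D5 or D7 or first in a list, and the 5 genes of most similar pattern; others were named after their values were seen. The 10 genes and the lists were chosen with earlier results of these data known. A gene of the naive-state list is not reported here. Promoter letters are from RefSeq.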

Additional observations from a re-analysis of the deposited data

Results flagged for a closer look

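The difference between KO and WT on the log2 scale was itself found to differ between stages, by interaction terms of the DESeq2 fit, in the following cases. For Tfcp2l1 it was 1.70 higher at D5 than at D3, and this was called under every alternative and with each library left out. For Tbx3 it was 1.49 higher at D7 than at D5, and for Klf5 1.36 higher. From D7 to iPSC it changed by -2.11 for Klf2, -1.97 for Prdm14 and -1.63 for Zfp42. It changed by -1.35 for Klf5, -1.29 for Tfcp2l1, -1.21 for Nr5a2, -1.20 for Sall4 and -1.18 for Esrrb over the same interval, and by -0.59 for Nanog. The comparisons at D7 and in iPSCs share no library, but D7 libraries were sorted populations and iPSCs were single-cell clones. No group held enough libraries for a test of single values that stand apart.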

How the results depend on the processing

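With settings other than leaving out a library, 93 counts of called genes held to within 1.5 times, 5 rose and 7 fell. The count at D7 stayed at 10 and that at D5 at 7 or 8 (Prdm14 had no FDR when compared groups alone were fitted), and the first stage above MEFs moved for no gene under any setting tried. At D3 the count was 2 (Sall4 and Zfp42) with the compared groups only and 2 with the replicate block, in place of 0. In iPSCs it was 2 (Tbx3 and Nanog) with the replicate block. In ESCs it was 0 with edgeR, 4 with the compared groups only and 1 with the replicate block, in place of 2. ESC against iPSC in WT gave 0 with edgeR, the compared groups only or the replicate block, in place of 1, and in KO 0 with edgeR or the compared groups only. The effect in ESC against iPSC gave 1 (Tbx3) with the replicate block, in place of 0. Leaving out 1 library gave 0 to 1 genes at D3, 1 to 2 in iPSCs, 0 to 2 in ESCs, 0 to 1 for ESC against iPSC in WT and in KO, and 0 to 1 for the effect in ESC against iPSC. The cause of these changes was not tested. The block also added Nanog to the effects called different from D5 to D7 and Tbx3 to those from D7 to iPSC, and changed no other call of KO against WT.

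Same-numbered KO and WT libraries did not all deviate together by more than r = 0.1 over genes, so the numbers were not taken as pairs. At D3 r was 0.287, 0.0752 and 0.145, at D5 0.167, 0.0593 and 0.130, and at D7 0.226, 0.0838 and 0.230. In iPSCs, which are separate clones, r was -0.120, 0.00376 and 0.224, with other numbers up to 0.167. At D5 and D7 each library correlated best with its own number (other numbers at most 0.00702 and -0.0119), a hint from the data and not the design. Over all genes, edgeR gave 30 calls at D3 (against 79 with DESeq2), 809 at D5 (1265) and 1086 in ESCs (1706), and for the effect 2 from D3 to D5 (10), 421 from D5 to D7 (961; 288 higher against 465) and 63 from iPSC to ESC (242). The block gave 33 in MEFs (9), 129 at D3, and 29 and 403 for the first and last of these effects. The compared groups alone gave 5 in MEFs, 308 at D3, 2301 at D5, 615 in iPSCs (3436), and 90, 2241 and 49 for those 3 effects. With 3 libraries a group and few reads of Prdm14 before D7, small differences at low counts were not detectable.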

Other observations

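Some genes of the lists differed by genotype in pluripotent clones, and are named here after their values were seen. Pecam1, a cell adhesion gene also on naive cells, rose in KO iPSCs from 1232 ± 508 in WT to 2819 ± 522 in KO (DESeq2 FDR 0.000372) and in KO ESCs from 1372 ± 74.8 in WT to 2447 ± 241 in KO (DESeq2 FDR 0.0297). Tdh, threonine dehydrogenase, fell in KO iPSCs from 16519 ± 1084 in WT to 12766 ± 2137 in KO (DESeq2 FDR 0.000563) and in KO ESCs from 17286 ± 169 in WT to 14119 ± 868 in KO (DESeq2 FDR 0.015), while at D7 it rose in KO from 6163 ± 269.6 in WT to 8118 ± 551 in KO (DESeq2 FDR 7.32e-05). Zic2, a gene of the primed state, rose in KO iPSCs from 443 ± 129 in WT to 1021 ± 230.5 in KO (DESeq2 FDR 5.89e-06) and in KO ESCs from 468 ± 37.6 in WT to 837 ± 181 in KO (DESeq2 FDR 0.00531). Dppa3 rose in KO iPSCs from 111 ± 52.1 in WT to 521 ± 398 in KO (DESeq2 FDR 0.00341) with a wide spread between clones, and Socs3, a feedback inhibitor of LIF signalling, fell in KO ESCs from 3682 ± 132 in WT to 2055 ± 183 in KO (DESeq2 FDR 0.025).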
